A study of Mus musculus with 6 samples.

Results

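The 41 genes described here encode the glutathione and thioredoxin systems, catalase and the superoxide dismutases, the enzymes that supply NADPH, and the NRF2 regulators with a pair of their best known targets. They were chosen as a list of gene symbols on known function, with *Gpx2* singled out within it. Both choices were made with earlier results of these data known. The genes were found by NCBI Gene identifier in the deposited tables of mouse breast tumors. All 41 were among the 18460 genes listed in at least 1 of the 6 tumors. The mice were Balb/c. The 3 control tumors came from PyMTtg;Rag1KO mice and the 3 test tumors from K14-TSLPtg;PyMTtg;Rag1KO mice, and the mice of both groups received CD4+ T cells at 4 wk of age and gave their tumors between wk 18 and 20. The PyMT oncogene is driven in mammary epithelium by the MMTV promoter, the TSLP transgene is driven in keratinocytes by the K14 promoter, and the Rag1 deletion, which leaves a mouse without T and B cells of its own, was shared by both groups. The study set these tumors side by side to ask what CD4+ T cells stimulated by TSLP, an epithelial cytokine, change in tumor gene expression. The question taken up here is how the antioxidant genes differed between the groups and where *Gpx2* stood among them.

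Glutathione is the main small thiol of the cell. Glutathione peroxidases use it to reduce peroxides, glutathione reductase returns the oxidized form with NADPH, and glutathione transferases attach it to reactive compounds. A parallel chain of thioredoxin, thioredoxin reductase and peroxiredoxins handles peroxides as well. NRF2, the protein of *Nfe2l2*, is held back by KEAP1 and switches many of these genes on by binding antioxidant response elements, while GPX2 is a selenium-dependent peroxidase known mainly from gut and other epithelia.

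Sequence upstream of *Gpx2* is shown because the results turn on this gene. *Gpx2* (NCBI Gene 14776) is a protein-coding gene on the minus strand of chromosome 12, from 76792335 to 76795554 in GRCm38.p6, and the 250 bases before its start (chr12:76795555-76795804, minus strand, outside any RefSeq gene span, sequence from RefSeq) read as follows, with no capitals because the motif searched was not in them.
Gpx2: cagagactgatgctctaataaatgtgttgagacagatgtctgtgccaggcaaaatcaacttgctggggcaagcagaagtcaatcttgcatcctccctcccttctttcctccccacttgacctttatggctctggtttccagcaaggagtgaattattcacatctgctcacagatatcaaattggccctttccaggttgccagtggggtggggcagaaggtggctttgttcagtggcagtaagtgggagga

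The motif searched was the core of the antioxidant response element, TGACNNNGC, on both strands of RefSeq promoter windows of 300 bases, 250 before and 50 after each start in GRCm38.p6. A window was found for 35 of the 41 genes. *Gclc*, *Gsr*, *Gsta4*, *Hmox1*, *Prdx6* and *Sod3* had none. The core was present in 10 of these 35 genes (28.6%), in 3781 of all 27025 genes with a window (14%) and in 16 of 83 other genes of the same pathways (19.3%). Counted by window, it was in 10 of 43 windows of the antioxidant genes (23.3%) and in 4071 of all 32851 windows (12.4%). A match describes letters only, and the absence of one in the *Gpx2* window says nothing of NRF2 at this gene.

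The stretches that hold the core and end before the start of the gene are shown to let the sites be compared, each from RefSeq on the strand of its gene with the core or its reverse complement in capitals. The stretch of *G6pdx* lies inside the span of *Ikbkg*, that of *Gclm* in the lncRNA gene *Gm46822*, that of *Gsta3* in the lncRNA gene *Gm28836*, that of *Prdx1* in the lncRNA gene *AV051173* and that of *Txnrd1* in the span of *Txnrd1* itself, upstream of one of its starts. The stretches of *Mgst1*, *Nfe2l2* and *Sod1* lie in no RefSeq gene span.
Gclm (chr3:122245411-122245443, plus strand): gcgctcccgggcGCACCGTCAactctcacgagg
Gsta3 (chr1:21240452-21240484, plus strand): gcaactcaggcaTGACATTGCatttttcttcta
Mgst1 (chr6:138140459-138140491, plus strand): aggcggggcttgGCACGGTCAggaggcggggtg
Nfe2l2 (chr2:75704883-75704913, minus strand): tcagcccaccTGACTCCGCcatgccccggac
Prdx1 (chr4:116685454-116685486, plus strand): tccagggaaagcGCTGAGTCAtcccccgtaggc
Sod1 (chr16:90220694-90220726, plus strand): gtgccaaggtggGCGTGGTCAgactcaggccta
Txnrd1 (chr10:82859102-82859134, plus strand): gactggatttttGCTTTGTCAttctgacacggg
G6pdx (chrX:74428917-74428949, minus strand): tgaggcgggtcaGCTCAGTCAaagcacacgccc
*Pgd* and *Srxn1* held the core past the start, and their stretches are not shown.

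Each tumor was 1 library with a total of between 8373390 and 9449565 expected counts, that is, estimated reads per gene. Tumors are numbered by the replicate number of their labels. CPM below are counts scaled to library size with TMM factors in edgeR, and compare tumors for 1 gene. FPKM, the authors' values per length and depth, are used to compare levels between genes. A floor of 3 counts, the level that the depth can show, came to between 0.317 and 0.358 CPM before that scaling, and it covers counting error only. Control tumor 2 stood apart from its group, with a Pearson correlation across genes of 0.867 and 0.902 with the other control tumors and of 0.916, 0.922 and 0.93 with the test tumors. *Tslp* had 2, 2 and 3 counts in control tumors 1, 2 and 3 and 12, 7 and 2 counts in test tumors 1, 2 and 3, too few to check the labels. *Krt14*, the mouse gene of keratin 14, was at 15.6, 57.3 and 101 CPM in the control tumors and at 43.7, 119 and 117 CPM in the test tumors. Activity of the K14 promoter of the transgene within the tumors was not tested. *Rag1* was at 27, 4 and 10 counts in the control tumors and at 6, 12 and 9 in the test tumors, which does not check the deletion, since transcript can remain from a deleted allele. Neither gene passed the filter on low counts. The markers of mammary epithelium, in which the PyMT oncogene is driven, were present in every tumor, and those of T cells summed to between 2.77 and 5.75 CPM.

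*Gpx2* was nearly absent from the control tumors and present at a similar level in every test tumor. It had 0, 5 and 11 counts in control tumors 1, 2 and 3 and 232, 186 and 190 counts in test tumors 1, 2 and 3. In CPM these were 0.0, 0.541 and 1.17 in the control tumors, with a mean of 0.571 ± 0.587 (SD, n = 3), and 26.8, 22.7 and 20.2 in the test tumors, with a mean of 23.2 ± 3.32 (SD, n = 3). The lowest test tumor lay far above the highest control tumor, and the test tumors differed little from each other. The log2 fold change was 5.29 (standard error, SE, 0.84), a fitted 39.2-fold difference, which was the third largest log2 fold change above 0 among all 13706 tested genes. Its edgeR quasi-likelihood p was 0.000282, rank 4 of all tested genes, and its adjusted p was 0.394. The exact permutation test on log2(CPM + 0.5), two-sided, gave p = 0.1, the smallest that 3 tumors against 3 allow. DESeq2 gave a log2 fold change of 5.33 (SE 0.67, adjusted p = 8.68e-12), with rank 2 by p. limma on log2(FPKM + 1) gave a difference of 3.93 on that scale and an adjusted p of 0.0432. *Gpx2* was the single gene that limma called among 12890. DESeq2 and limma thus called the gene and edgeR did not. The 3 methods were fitted to the same tumors, whose groups did not overlap for *Gpx2*, so their shared direction adds no support. *Gpx2* was also singled out with earlier results of these data known, and its p values and ranks do not allow for that choice. When any 1 tumor was left out the edgeR log2 fold change was between 4.73 and 6.32, with adjusted p values from 0.0624 without control tumor 2 to 0.916 without control tumor 3.

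Across the 13706 genes tested with edgeR, 0 had an adjusted p of 0.05 or less (0.0%), 1153 had an unadjusted p under 0.05 (8.41%), and the groups did not overlap for 1642 (12.0%). DESeq2 called 343 of 14451 genes at an adjusted p of 0.05 or less (2.37%) and limma 1 of 12890 (0.00776%). Of the antioxidant genes, 40 were tested and *Mgst2*, with few counts, did not pass the filter. *Gpx2* passed it with low counts in the control tumors, so its own difference had a part in its being tested. Of the 40, edgeR called 0 at an adjusted p of 0.05 or less, against 1 by DESeq2 and 1 by limma, which was *Gpx2* in both. An unadjusted edgeR p under 0.05 was reached by 6 of the 40 (15.0%), of which *Gpx2*, *Gpx3*, *Gsr* and *Mgst3* were higher in test tumors (3.15% of all tested genes were called in this direction) and *Sod3* and *Hmox1* were lower (5.26%). Test and control values were fully apart in 5 of the 40 (12.5%), a share near that of all tested genes, with *Gpx2*, *Gsr* and *Mgst3* higher in test tumors (6.12% of all tested genes) and *Cat* and *Gstm1* lower (5.86%). The median log2 fold change of the 40 was 0.17, against 0.0179 for all tested genes. It was above 0 for 27 of the 40 (67.5%), against 51.5% of all tested genes, and at least 1 in size for 6 (15.0%), against 12.4%.

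**Figure D1:**
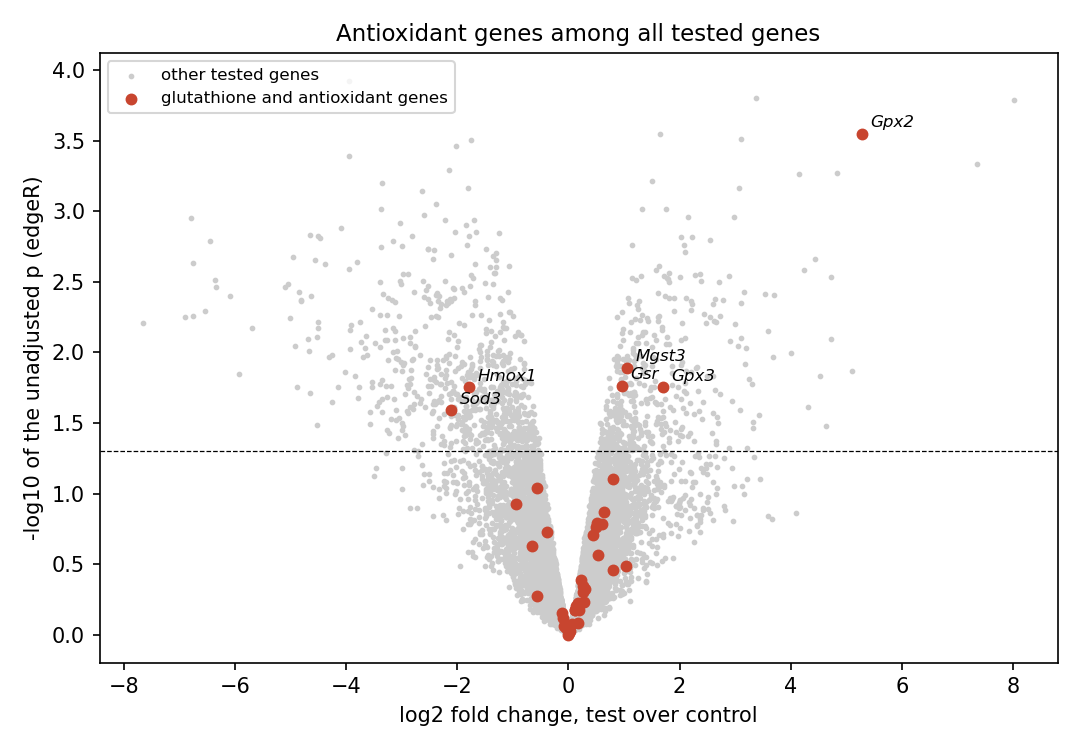
Log2 fold change (test over control, x axis) against the −log10 of the unadjusted edgeR p (y axis) for the 13706 tested genes in gray and 40 antioxidant genes in red. The dashed line marks a p of 0.05. *Gpx2*, at 5.29, stands far to the right of the other antioxidant genes, of which 5 more lie above the line.

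The 6 glutathione peroxidases were expressed at very different levels. GPX1 is the ubiquitous cytosolic enzyme, GPX3 is secreted into plasma, GPX4 reduces lipid peroxides in membranes, and GPX7 and GPX8 sit in the endoplasmic reticulum. Their summed FPKM was between 565 and 787 in the control tumors and at 949, 1430 and 738 in test tumors 1, 2 and 3. *Gpx2* made up 0.0%, 0.0675% and 0.146% of this sum in control tumors 1, 2 and 3 and 2.77%, 1.43% and 2.57% in test tumors 1, 2 and 3, a mean of 0.0712% ± 0.0731 against 2.26% ± 0.723 (SD, n = 3 each). It was thus a minor peroxidase transcript in every tumor. *Gpx1* held 37.0%, 43.7% and 29.0% of the sum in the control tumors and 29.9%, 34.4% and 43.4% in the test tumors, and *Gpx4* held 48.9%, 45.0% and 59.2% and then 33.9%, 43.7% and 45.1%. Ranked by FPKM among the 41 antioxidant genes, *Gpx2* was at rank 41, 40 and 40 in the control tumors and at rank 26, 30 and 29 in the test tumors. In the test tumors it thus stood below the middle of the list, in which *Gpx4* or *Mgst1* was the highest gene of every tumor.

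*Gpx3* (chromosome 11, 54902854 to 54910387) was at 74.6, 119 and 95.9 CPM in control tumors 1, 2 and 3 and at 452, 403 and 88.9 CPM in test tumors 1, 2 and 3. A pair of test tumors lay well above the controls, and test tumor 3 lay among them. Its log2 fold change was 1.71 (SE 0.57, edgeR adjusted p = 0.475). Adipocyte markers had the same order as *Gpx3* in the test tumors and the reverse order in the control tumors. Their summed level was 24.7, 12.2 and 19.7 CPM in the control tumors and 238, 61.0 and 14.6 CPM in the test tumors. Both tested markers of that list of 5 were higher on average in test tumors. Skeletal muscle markers had the same order of test tumors and, like *Gpx3*, were highest among the control tumors in control tumor 2. The part of adipocytes or of skeletal muscle in the *Gpx3* difference was not tested. In bulk tumors a change in the number of cells of a type and a change in RNA per cell cannot be told apart.

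*Gpx1* was at 235, 347 and 231 CPM in control tumors 1 to 3 and at 287, 542 and 337 CPM in test tumors 1 to 3, with overlapping groups. Its log2 fold change was 0.52 (SE 0.34, edgeR adjusted p = 0.714). *Gpx4* was at 276, 318 and 421 CPM in the control tumors and at 291, 614 and 312 CPM in the test tumors, with test tumor 2 alone above the controls. The log2 fold change of *Gpx4* was 0.26 (SE 0.37) and turned to -0.16 without test tumor 2. *Gpx7* was low throughout, at 2.89, 1.19 and 4.16 CPM in the control tumors and at 1.96, 10.4 and 2.12 CPM in the test tumors, and its log2 fold change of 0.80 (SE 0.80) turned to -0.42 without test tumor 2. *Gpx8* was the only peroxidase gene with a log2 fold change below 0, at -0.56 (SE 0.87), and ranged from 5.95 to 33.1 CPM in the control tumors and from 4.38 to 31.5 CPM in the test tumors. It was -2.03 without test tumor 2 and -0.032 without control tumor 1. Among the peroxidases, then, 5 of 6 were higher on average in test tumors (83.3%, against 51.5% of all tested genes). For *Gpx4* and *Gpx7* this rested on test tumor 2. The groups were apart for *Gpx2* alone.

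**Figure D2:**
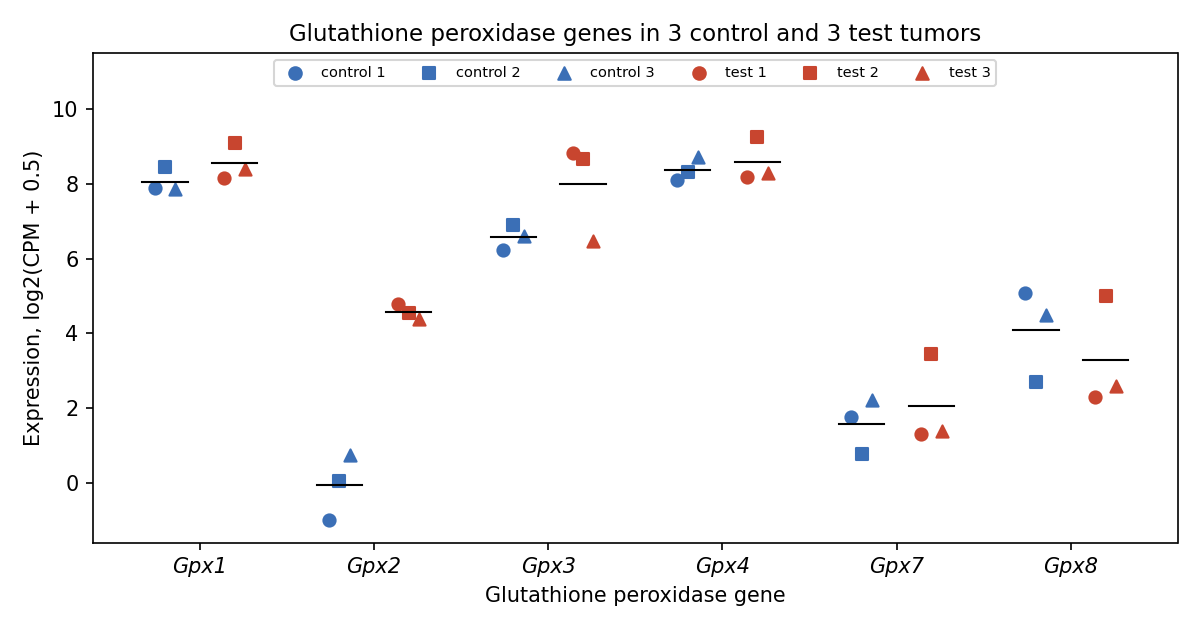
Expression of the 6 glutathione peroxidase genes in each tumor as log2(CPM + 0.5). Blue marks control and red test tumors, the symbol marks the replicate number, and black lines are means of the 3 tumors. The groups are apart for *Gpx2*, between 0.0 and 1.17 CPM in control tumors and between 20.2 and 26.8 CPM in test tumors, and overlap for the other genes.

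In glutathione synthesis and recycling, edgeR called 0 of 5 genes at an adjusted p of 0.05 or less. The groups were apart in CPM for the recycling enzyme alone (20.0%, against 12.0% of all tested genes). *Gsr* encodes glutathione reductase (chromosome 8, 33653238 to 33698162). It was at 25.2, 47.4 and 24.1 CPM in control tumors 1, 2 and 3 and at 67.3, 60.5 and 61.5 CPM in test tumors 1, 2 and 3. Every test tumor lay above every control tumor, and control tumor 2 was nearest to them. The log2 fold change was 0.97 (SE 0.32, edgeR adjusted p = 0.475), with p = 0.1 in the exact two-sided permutation test. Glutamate-cysteine ligase, the rate-limiting enzyme of synthesis, has a catalytic subunit from *Gclc* and a modifier subunit from *Gclm*. *Gclc* was at 34.8, 28.0 and 31.6 CPM in the control tumors and at 39.0, 26.0 and 31.0 CPM in the test tumors, a log2 fold change of 0.022 (SE 0.26). *Gclm* was at 37.1, 40.2 and 40.3 CPM and then at 45.5, 37.1 and 32.4 CPM, a log2 fold change of -0.033 (SE 0.24). Both subunits were among the least variable genes of the list, and both signs depended on single tumors. Glutathione synthetase, *Gss*, had a log2 fold change of 0.22 (SE 0.25), and *Slc7a11*, which brings in the cystine for synthesis, one of 0.014 (SE 0.31), between 283 and 506 CPM over all 6 tumors.

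Of the 8 transferases tested, edgeR called 0 at an adjusted p of 0.05 or less. The groups were apart for *Mgst3*, with the test tumors above, and for *Gstm1*, with the test tumors below (25.0%, against 12.0% of all tested genes). A share of so few genes says little of the class. *Mgst3*, a microsomal transferase (chromosome 1, 167371966 to 167393841), was at 12.3, 19.9 and 15.0 CPM in control tumors 1, 2 and 3 and at 30.6, 43.1 and 24.5 CPM in test tumors 1, 2 and 3, without overlap. Its log2 fold change was 1.06 (SE 0.33, edgeR adjusted p = 0.456; exact two-sided permutation p = 0.1). *Mgst2*, which makes leukotriene C4 among other products (chromosome 3, 51636912 to 51682675), had 2, 0 and 1 counts in the control tumors and 14, 6 and 10 counts in the test tumors. No control tumor exceeded the floor of 3 counts and every test tumor did. Pooled, the depth-scaled ratio of 30 to 3 counts was 10.4, with an exact 95% interval of 3.23 to 53.1 that covers counting error and not the spread between tumors, and no fit was made for this gene. *Mgst1*, the most abundant of the microsomal transferases, was at 125, 1091 and 220 CPM in the control tumors and at 551, 536 and 529 CPM in the test tumors. Control tumor 2 held the highest level and the other control tumors the lowest. Its log2 fold change of 0.17 (SE 0.73) was 1.64 without that tumor, with an edgeR adjusted p of 0.0913.

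*Gstm1*, the mu-class transferase, went the other way (chromosome 3, 108012250 to 108017973). It was at 137, 111 and 115 CPM in control tumors 1, 2 and 3 and at 101, 69.0 and 18.5 CPM in test tumors 1, 2 and 3. All test tumors were below all control tumors, though test tumor 1 only just, and test tumor 3 was far lower than the rest. The log2 fold change was -0.94 (SE 0.54, edgeR adjusted p = 0.698) and was -0.49 without test tumor 3. *Gstt1*, of the theta class, was at 20.3, 21.7 and 48.1 CPM in the control tumors and at 39.1, 65.5 and 53.7 CPM in the test tumors, a log2 fold change of 0.81 (SE 0.40, edgeR adjusted p = 0.656) with overlap through control tumor 3. *Gsta3*, of the alpha class, was at 1.04, 9.52 and 9.38 CPM and then at 25.6, 13.5 and 1.91 CPM, and its log2 fold change of 1.04 (SE 0.99) was 0.21 without test tumor 1. *Gsta4*, *Gstm2* and *Gstp1* had log2 fold changes of -0.086, 0.28 and -0.0018, each smaller than its SE. The alpha, mu and pi classes have near-identical copies between which the authors' counting could have split reads, and their values are uncertain for that reason, as are those of peroxidase, thioredoxin, peroxiredoxin and ferritin genes with processed pseudogenes.

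Of the 9 genes of thioredoxin, its reductase, sulfiredoxin and the 6 peroxiredoxins, edgeR called 0 at an adjusted p of 0.05 or less. The log2 fold change was above 0 for 7 of the 9 (77.8%, against 51.5% of all tested genes), a share of few genes. Of these 9 genes, 0 had an unadjusted edgeR p under 0.05, the groups overlapped for all 9, and their median log2 fold change was 0.19, from -0.12 for *Srxn1* to 0.64 for *Prdx5*. *Prdx5* was at 105, 72.7 and 88.1 CPM in the control tumors and at 86.1, 221 and 107 CPM in the test tumors, and *Prdx4* at 35.3, 61.3 and 39.2 CPM and then at 40.6, 101 and 64.3 CPM, with test tumor 2 the highest tumor for both. *Prdx5* overlaps *Trmt112* in the annotation, which ranged from 49.4 to 101 CPM and was likewise highest in test tumor 2. *Txn1* had a log2 fold change of 0.49 (SE 0.33), *Txnrd1* one of -0.089 (SE 0.28), and *Prdx1*, the most abundant of the group with 390 to 705 CPM in control and 409 to 900 CPM in test tumors, one of 0.30 (SE 0.39). *Prdx2*, *Prdx3* and *Prdx6* had log2 fold changes of 0.19, 0.14 and 0.072.

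Catalase breaks down hydrogen peroxide in peroxisomes. *Cat* (chromosome 2, 103453904 to 103485153) was at 309, 378 and 311 CPM in control tumors 1, 2 and 3 and at 292, 167 and 219 CPM in test tumors 1, 2 and 3. All test tumors lay below the control tumors, with test tumor 1 close to them. The log2 fold change was -0.56 (SE 0.29, edgeR adjusted p = 0.666; exact two-sided permutation p = 0.1). *Sod3*, the extracellular superoxide dismutase (chromosome 5, 52363804 to 52369738), was at 84.0, 22.4 and 221 CPM in the control tumors and at 18.8, 39.7 and 17.5 CPM in the test tumors. Control tumors 1 and 3 were high and control tumor 2 lay among the test tumors. Its log2 fold change of -2.11 (SE 0.76, edgeR adjusted p = 0.513) was -1.08 without control tumor 3. The cytosolic and mitochondrial enzymes, *Sod1* and *Sod2*, had log2 fold changes of 0.27 (SE 0.34) and 0.12 (SE 0.26).

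The pentose phosphate enzymes regenerate NADPH or feed carbon back into that route. *G6pdx* and *Pgd*, which reduce NADP, had log2 fold changes of -0.039 (SE 0.28) and 0.18 (SE 0.32), and *Tkt* and *Taldo1*, of the non-oxidative branch, 0.44 (SE 0.31) and 0.54 (SE 0.45). The groups overlapped for all 4. *Tkt* was at 282, 547 and 389 CPM in the control tumors and at 587, 523 and 542 CPM in the test tumors, with control tumor 2 alone among the latter. *G6pdx* overlaps *Ikbkg* in the annotation.

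Of the 4 genes of NRF2 regulation and response, 3 were lower on average in test tumors, and the groups overlapped for all 4. The log2 fold change was above 0 for 1 of them (25.0%), against 51.5% of all tested genes. A share of 4 genes says little of NRF2 targets, many of which are placed under other roles here. The 31 other NRF2 targets and NADPH genes described below had a median log2 fold change of -0.016, with 15 above 0 and 16 below. *Nfe2l2* was at 128, 97.5 and 134 CPM in control tumors 1, 2 and 3 and at 103, 67.7 and 104 CPM in test tumors 1, 2 and 3, a log2 fold change of -0.39 (SE 0.27, edgeR adjusted p = 0.732). *Keap1* was at 62.1, 53.2 and 69.1 CPM and then at 71.3, 53.7 and 74.0 CPM, a log2 fold change of 0.11 (SE 0.24). *Nqo1*, a quinone reductase and a common readout of NRF2, was at 144, 88.4 and 65.1 CPM in the control tumors and at 39.0, 113 and 35.5 CPM in the test tumors. Its log2 fold change of -0.66 (SE 0.52, edgeR adjusted p = 0.762) was -1.41 without test tumor 2. *Hmox1*, the heme oxygenase that NRF2 and other factors induce (chromosome 8, 75093618 to 75100593), was at 133, 23.7 and 64.2 CPM in the control tumors and at 14.3, 22.2 and 27.4 CPM in the test tumors. Control tumors 1 and 3 were high, and control tumor 2 lay within the range of the test tumors. The log2 fold change was -1.79 (SE 0.59, edgeR adjusted p = 0.475) and -1.05 without control tumor 1. *Cd68*, a macrophage marker, had the same order of control tumors at 102, 23.5 and 57.1 CPM, against 19.3, 37.4 and 29.6 CPM in the test tumors, while *Adgre1*, *Csf1r*, *Mrc1* and *C1qa*, the other markers of the list, were all highest among the control tumors in control tumor 3. Of the 5 markers 4 were lower on average in test tumors, and their summed level was 314, 199 and 446 CPM in control and 192, 409 and 248 CPM in test tumors. The part of macrophages in the *Hmox1* values was not tested.

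**Figure D3:**
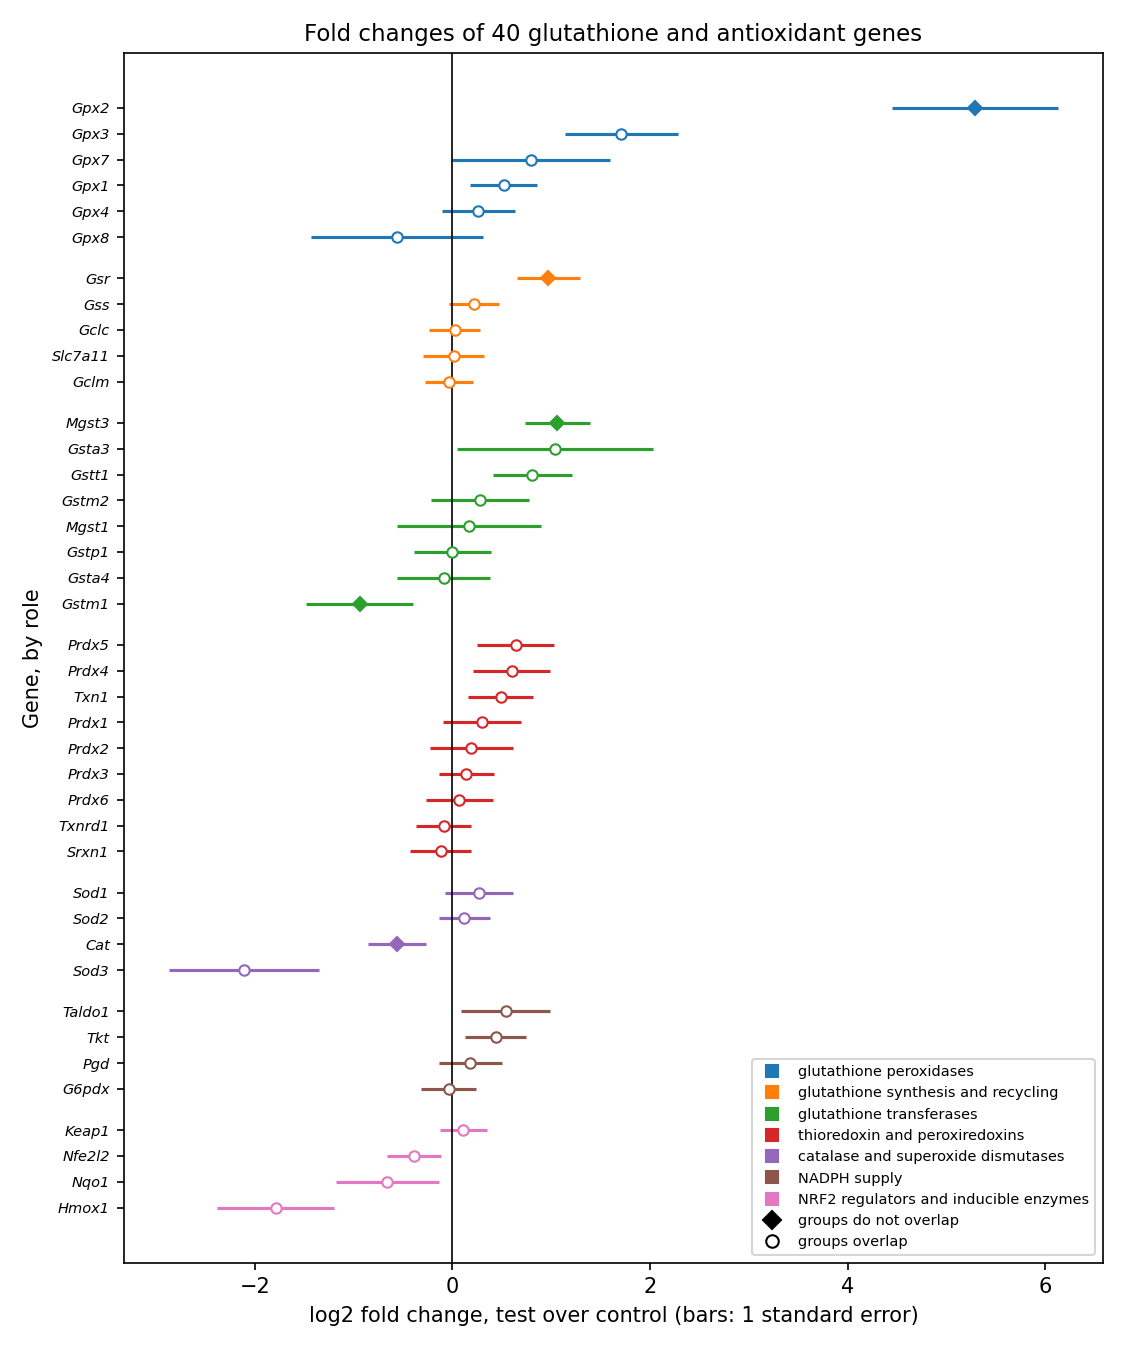
Log2 fold changes (test over control) of the 40 tested antioxidant genes, grouped by role and colored by it, with bars of 1 SE. Filled diamonds mark the 5 genes whose groups did not overlap, and open circles the other genes. Most genes lie within 1 of 0, and *Gpx2*, *Gpx3*, *Sod3* and *Hmox1* lie farthest from it.

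**Figure D4:**
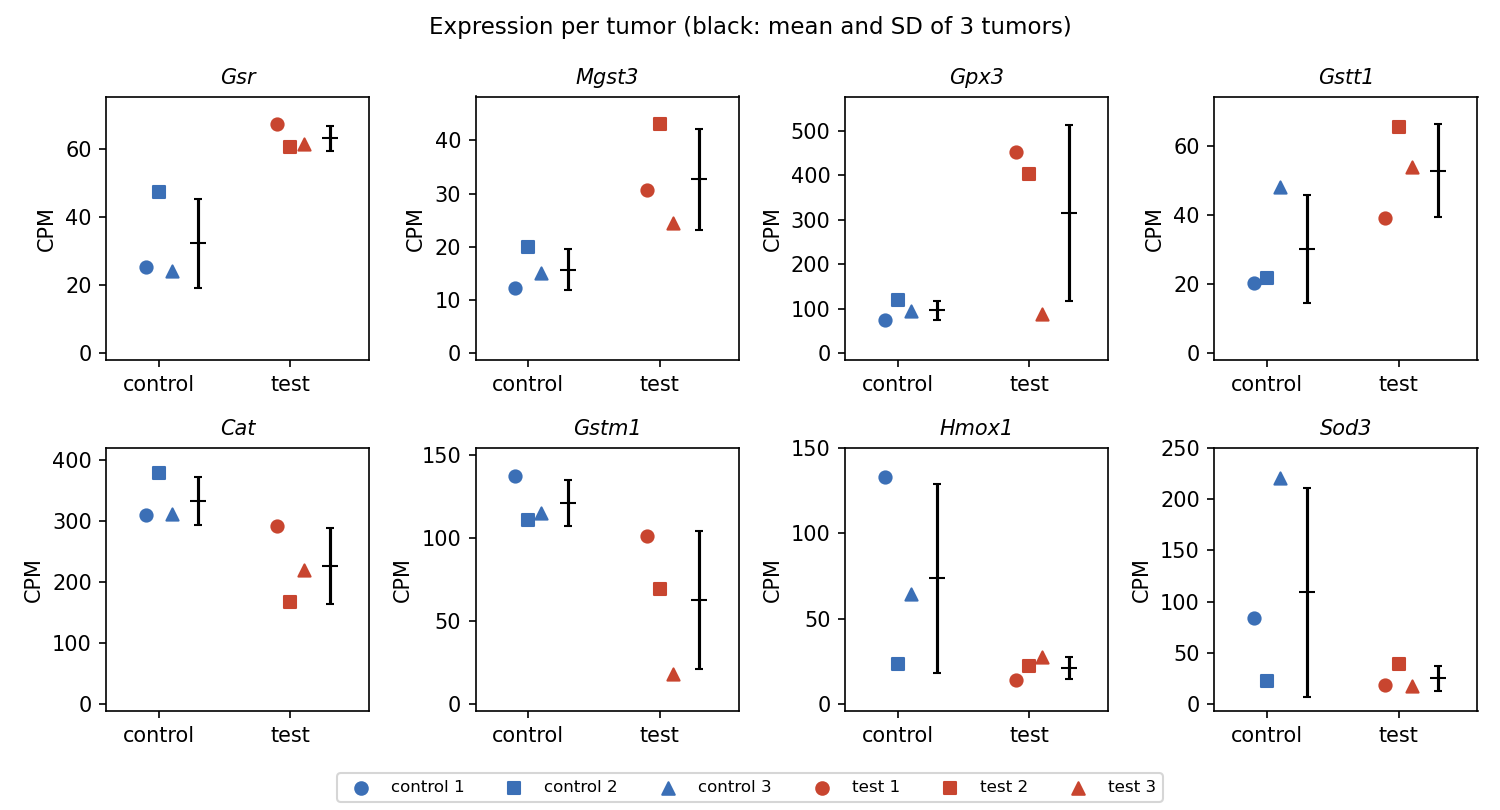
CPM in each tumor for *Gsr*, *Mgst3*, *Gpx3*, *Gstt1*, *Cat*, *Gstm1*, *Hmox1* and *Sod3*. Blue marks control and red test tumors, the symbol marks the replicate number, and black bars show the mean and SD of 3 tumors. The groups are apart for *Gsr*, *Mgst3*, *Cat* and *Gstm1*, while control tumor 2 falls among the test tumors for *Hmox1* and *Sod3*.

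The antioxidant genes also varied together between tumors of the same group. Test tumor 2 was the highest of the 6 tumors for 18 of the 40 tested genes (45.0%), against 25.7% of all tested genes, and control tumor 1 was the lowest for 16 (40.0%), against 21.6%. Many of the 40 genes are short, with a median length of 1431 bases against 2822 for all tested genes. All tested genes under 1000 bases deviated in test tumor 2 by a median of 0.785 on the log2 scale from their mean over the tumors, and genes over 4000 bases by -0.403. The antioxidant genes deviated there by a median of 0.50, and in control tumor 1 by -0.321, where genes under 1000 bases deviated by -0.345. With each tumor's trend with gene length removed, the median log2 fold change of the 40 was 0.065 in place of 0.17, and that of *Gpx2* was 5.11. *Gpx4*, *Prdx2*, *Prdx3* and *Sod1* then had log2 fold changes below 0.

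The summed level of mammary epithelial markers, listed apart from basal and myoepithelial ones, was higher in every test tumor than in any control tumor. Of the basal and myoepithelial list, 4 of 5 were lower on average in test tumors, and its summed level overlapped between the groups. The summed level of *Epcam*, *Cdh1*, *Krt8*, *Krt18* and *Krt19* was 2000, 3563 and 1590 CPM in control tumors 1, 2 and 3 and 4723, 4696 and 5035 CPM in test tumors 1, 2 and 3, and all 5 were higher on average in test tumors, 3 of them with an unadjusted edgeR p under 0.05 and 0 with an adjusted p of 0.05 or less. The groups were apart for *Krt8*, *Krt18* and *Krt19* and overlapped for *Epcam* and *Cdh1*. The sum is RNA of these markers and not a count of epithelial cells. Set against 1000 CPM of all 5 markers, *Gpx2* was at 0.0, 0.152 and 0.737 in the control tumors and at 5.66, 4.83 and 4.00 in the test tumors, still without overlap. *Gsr*, at 12.6, 13.3 and 15.1 against 14.3, 12.9 and 12.2, overlapped on this scale, and so did *Mgst3*. On this scale, chosen after the data were seen, the test tumors lay below every control tumor for 16 of the 40 tested antioxidant genes (40%), against 44.3% of all tested genes, since the divisor was itself higher in every test tumor. *Cat* and *Gstm1* were among the 16, and so were *Gclm*, *Gss*, *Slc7a11*, *Nfe2l2*, *Nqo1* and *Hmox1*, whose groups overlapped in CPM. *Gpx2* was the 1 tested antioxidant gene with every test tumor above, against 0.292% of all tested genes, and untested *Mgst2* was likewise higher.

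The other genes of these pathways, a list of 92 genes in the tables of which 85 were tested, leaned to neither direction. Their log2 fold change was above 0 for 43 (50.6%), against 67.5% of the tested antioxidant genes and 51.5% of all tested genes. edgeR called 0 at an adjusted p of 0.05 or less, limma 0 and DESeq2 3, where DESeq2 called 2.37% of all genes. An unadjusted edgeR p under 0.05 was reached by 12 (14.1%, against 8.41% of all tested genes), 6 in each direction. The groups were apart for 17 (20.0%, against 12.0% of all tested genes), 8 of them with the test tumors above and 9 with the test tumors below. The median log2 fold change was 0.011. By role, the median was 0.14 over 23 other glutathione enzymes, -0.0034 over 21 thioredoxin and selenoprotein genes, 0.088 over 10 other NRF2 regulators and -0.016 over 31 other NRF2 targets and NADPH genes. The DESeq2 calls were *Fth1*, *Msrb3* and *Sesn3*, all lower in test tumors. The iron store ferritin heavy chain, *Fth1*, had the largest log2 fold change below 0 of the list at -2.20 (SE 0.66, edgeR adjusted p = 0.454), at 9365, 2112 and 8322 CPM in the control tumors and at 1105, 2346 and 845 CPM in the test tumors, with control tumor 2 again among the test tumors. *Msrb3*, a methionine sulfoxide reductase, was at 78.8, 51.4 and 73.8 CPM and then at 28.9, 26.6 and 29.9 CPM, and *Sesn3*, a sestrin, at 60.3, 47.9 and 44.4 CPM and then at 22.8, 24.5 and 25.0 CPM, both without overlap, with log2 fold changes of -1.25 (SE 0.26) and -1.08 (SE 0.24). *Ggt5*, a gamma-glutamyl transferase, was at 19.0, 3.03 and 14.4 CPM in the control tumors and at 4.61, 2.56 and 1.06 CPM in the test tumors, a log2 fold change of -2.14 (SE 0.78). Aldehyde oxidase, *Aox1*, was at 49.4, 3.89 and 32.7 CPM and then at 13.7, 4.88 and 3.50 CPM, and its log2 fold change of -1.96 (SE 0.88) was -1.32 without control tumor 1. Control tumor 2 lay among the test tumors for both genes. *Cbs*, which starts the route from homocysteine to cysteine, was at 4.98, 8.44 and 4.26 CPM and then at 3.11, 1.95 and 0.849 CPM without overlap, a log2 fold change of -1.58 (SE 0.59).

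On the other side, *Gstt2*, a second theta-class transferase, was at 4.28, 3.89 and 9.70 CPM in the control tumors and at 17.8, 22.1 and 10.3 CPM in the test tumors, a log2 fold change of 1.48 (SE 0.49, edgeR adjusted p = 0.475) without overlap. The metallothionein *Mt2* was at 57.7, 35.5 and 64.7 CPM and then at 105, 213 and 80.9 CPM, a log2 fold change of 1.34 (SE 0.42, edgeR adjusted p = 0.464), also without overlap. *Txnip*, which binds and inhibits thioredoxin, was at 104, 144 and 139 CPM in the control tumors and at 905, 135 and 119 CPM in the test tumors. Its log2 fold change, the largest above 0 of the list at 1.58 (SE 0.77), was -0.023 without test tumor 1. *Osgin1* was at 5.21, 5.52 and 5.54 CPM in the control tumors and at 21.2, 3.30 and 12.9 CPM in the test tumors, with test tumor 2 below the controls. Without test tumor 1 its log2 fold change of 1.20 (SE 0.62) was 0.59.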

How the data were processed

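Total RNA of 6 tumors, each from a separate mouse, was made into libraries and read at BGI on a HiSeq 2000. Reads were aligned to mm10 with Bowtie. The submitters' processing notes also name BWA and RSEM without a role, and the annotation release is not given in the sources used here. For each tumor and gene the authors deposited an expected count, not normalized, and an FPKM, normalized by them for length and depth. Between 79.0% and 80.1% of the expected counts of a tumor were whole. Genes not listed in a tumor were set to 0.

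Genes were matched by NCBI Gene identifier to RefSeq GRCm38.p6, with 18400 of 18460 found. Expected counts were rounded and tested in edgeR 4.0.16 (R 4.3.3) with filterByExpr, TMM, the quasi-likelihood test without covariates and Benjamini-Hochberg adjustment over all tested genes. The standard error was the size of the log2 fold change over the square root of F. The common coefficient of variation between tumors was 0.434. Permutation tests were exact over all 20 splits. Alternatives were DESeq2 1.42.0, RLE factors, no filter, limma 3.58.1 on log2(FPKM + 1) where the mean FPKM reached 1, a block for the replicate number and each tumor left out in turn. Removal of the length trend and the scale per epithelial marker were added after the data were seen. No libraries were duplicates, with a chi-square per degree of freedom of at least 48.17 between tumors of a group. The code was tested on simulated data.

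The members and all lists were chosen with earlier results of these data known. Values in every tumor are given for *Gpx2*, for the 10 tested members largest in log2 fold change, for those with an unadjusted p under 0.05 or groups that do not overlap, and for *Gpx1*, *Gpx4*, *Nfe2l2*, *Keap1*, *Nqo1*, *Hmox1*, *Gclc* and *Gclm*, and, of the other pathway genes, for the 4 largest in each direction. Values of *Mgst1*, *Prdx4*, *Prdx5*, *Tkt*, *Msrb3* and *Sesn3* were given after they were seen.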

Additional observations from a re-analysis of the deposited data

How the results depend on the processing

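At an adjusted p of 0.05 or less, DESeq2 called 343 genes, limma on log2(FPKM + 1) 1 gene, and edgeR 0 in each fit with 1 tumor left out, except 182 without control tumor 2. Of the antioxidant genes, DESeq2 and limma called 1, *Gpx2*, with a log2 fold change of 5.33 in DESeq2. The limma value of 3.93 was a difference on the log2(FPKM + 1) scale and not the same measure. DESeq2 called 3 of the other pathway genes. The median log2 fold change of the other pathway genes ran from -0.1 without test tumor 2 to 0.2 without test tumor 3. The median of the antioxidant genes stayed above 0 in every fit, from 0.03 without test tumor 2 to 0.36 without control tumor 2. Its value of 0.17 in the main fit was smaller than 0.27, the mean SD within a group of the tumors' median deviations for these genes. Of 50 genes fitted, 31 kept the sign of their log2 fold change in all of the 12 alternatives that gave them a value, *Gpx2* among them. The other 19 changed sign when some tumor was left out, most often test tumor 2 (11 genes), and ran from -0.22 to 0.17 for *G6pdx*, -0.14 to 0.15 for *Gclc*, -0.18 to 0.087 for *Gclm*, -0.16 to 0.45 for *Gpx4*, -0.42 to 1.23 for *Gpx7*, -0.61 to 0.23 for *Gsta4*, -0.57 to 0.27 for *Gstp1*, -0.29 to 1.64 for *Mgst1*, -0.0038 to 0.53 for *Pgd*, -0.056 to 0.6 for *Prdx1*, -0.25 to 0.5 for *Prdx2*, -0.038 to 0.38 for *Prdx3*, -0.17 to 0.42 for *Prdx6*, -0.18 to 0.21 for *Slc7a11*, -0.16 to 0.45 for *Sod1*, -0.032 to 0.27 for *Sod2*, -0.3 to 0.087 for *Srxn1*, -0.023 to 2.02 for *Txnip* and -0.36 to 0.049 for *Txnrd1*. With the length trend removed, *Gpx4* was at -0.1, *Prdx2* at -0.18, *Prdx3* at -0.02 and *Sod1* at -0.19. limma gave a difference of -0.019 on the log2(FPKM + 1) scale for *Slc7a11*. The cause of these changes was not tested.

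Tumors with the same replicate number came from different mice, and their deviations from the group means correlated at -0.0296, 0.112 and -0.138, so that the numbers were not taken as pairs, and not every tumor correlated best with its own number. With a replicate block edgeR called 0 genes, 1056 had an unadjusted p under 0.05, *Gpx2* was at 5.51 and *Slc7a11* turned to -0.0089. The precision of low genes such as *Mgst2* and *Gpx2* in control tumors was limited by counts at or near the floor.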

Other observations

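The summed markers of other cell types were as follows. Skeletal muscle markers were at 6.83, 162 and 4.26 CPM in control tumors 1, 2 and 3 and at 853, 161 and 80 CPM in test tumors 1, 2 and 3, all 6 higher on average in test tumors and 0 with an unadjusted edgeR p under 0.05. Basal and myoepithelial markers ranged from 370 to 2326 CPM in control and from 494 to 819 CPM in test tumors, with 4 of 5 lower on average in test tumors. Fibroblast markers ranged from 744 to 2204 CPM in control and from 956 to 3703 CPM in test tumors. Erythroid markers, whose cells are rich in *Cat* and *Prdx2*, ranged from 137 to 490 CPM in control and from 329 to 426 CPM in test tumors. Neutrophil markers ranged from 21.2 to 90.7 CPM and from 13.3 to 36.7 CPM, endothelial markers from 88.1 to 126 CPM and from 95.4 to 130 CPM, and markers of cornified epidermis from 2.38 to 3.47 CPM and from 2.31 to 13.7 CPM. The groups overlapped for each of these lists.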
